A study of Mus musculus with 28 samples.

Results

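The genes described here are 41 lysosomal genes of the mouse kidney, measured as read counts among 56748 annotated genes. They comprise 15 hydrolases of glycans and glycosaminoglycans, 8 lipid hydrolases and their activators, 8 proteases, 7 proteins of the lysosomal membrane or of sterol transfer, and the 3 transcription factors Tfeb, Tfe3 and Mitf. They were taken by name from a list of lysosomal hydrolases, cathepsins, membrane proteins and Tfeb family regulators. The list states no expression threshold, but it was drawn up with earlier results of these data known, among them the level of Gusb in males of the 2 mutant forms of aquaporin-3, so the differences of Gusb between genotypes that use the male Q or R libraries are described below without a test of their own. All 41 were present in the count table, and all 41 passed the filter on low counts that kept 17573 genes.

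The kidneys came from untreated male and female mice with wild-type aquaporin-3 (WT), with a form of Aqp3 that mimics the acetylated lysine (Q), or with a form that mimics the deacetylated lysine (R). Aqp3 is a water and glycerol channel, known in the kidney from the basolateral side of the collecting duct. Each male genotype had 5 libraries, as did female WT and female Q, and female R had 3. All held polyadenylated RNA from whole kidneys that were collected at 2 to 5 h of zeitgeber time, decapsulated and frozen. The labels give no strain, age, litter or batch, do not say how the alleles were made, and do not state that each library is a separate animal, so the p-values measure the spread between these libraries, which may be technical. The altered codon is not visible in gene counts, so the genotype labels could not be checked.

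Library totals ran from 14825417 to 21403804 counts, and the lowest count of any member in any library was 98, for Npc1. Male Q replicate 4 and female Q replicate 5 stood apart from the rest, with 7.74% and 3.94% of counts in mitochondrial genes against 9.56% to 12.1% elsewhere. In male Q replicate 4, 20 members lay above and 14 below the range of the other 4 male Q libraries, and in female Q replicate 5 11 lay above and 19 below that of the other 4 female Q libraries. The library labelled female WT replicate 2 had 0.552 CPM of Xist (CPM, counts scaled to a library total of 1000000), against 225 to 460 in the other 12 female libraries. Its sum over 4 Y-linked genes was 0.502 CPM, near the other female libraries (0.825 to 1.56) and far from males (98.9 to 157.5). Its level of Galns, a member described below, was 28.1 CPM and within the female range. Of these, Xist alone went against the label. Results for the sexes are therefore also given without these libraries.

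Lysosomes are acidic compartments in which endocytosed material and worn-out cell parts are broken down. Their soluble hydrolases are made in the endoplasmic reticulum, mostly tagged with mannose 6-phosphate and delivered through endosomes, while heavily glycosylated membrane proteins line the compartment and carry its products out. Proximal tubule cells, which take up filtered protein by endocytosis, are rich in lysosomes. Tfeb, Tfe3 and Mitf are related basic helix-loop-helix factors that bind the E-box CACGTG, and many lysosomal promoters carry it within the longer palindrome TCACGTGA, the core of the CLEAR element.

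The promoter sequences below are shown because these motifs link many members of the list by sequence, a property that was not measured in the counts. RefSeq promoters on GRCm38.p6, from 250 bases before to 50 bases after each gene's start, were at hand for 36 of the 41 members, and Asah1, Ctsb, Ctsh, Galns and Npc1 had no entry. TCACGTGA was present in 5 of the 36 (13.9%), against 1.12% of 27025 genes in the table. The shorter CACGTG, which lies inside TCACGTGA, was present in 12 of the 36 (33.3%), against 8.09% of all genes. Both motifs are palindromes and so read the same on either strand. A match is a description of the letters and not evidence of binding. In the stretches below, written 5′ to 3′ on the gene's own strand, capitals mark TCACGTGA where it is complete and otherwise CACGTG. The first 5 lines give the members with the full palindrome, Ctsa on chr2:164833741-164833792 (plus strand), Cln3 on chr7:126583332-126583405 (minus), Ctsd on chr7:142387900-142387945 (minus), Mcoln1 on chr8:3500428-3500499 (plus) and Gla on chrX:134601174-134601252 (minus).
Ctsa: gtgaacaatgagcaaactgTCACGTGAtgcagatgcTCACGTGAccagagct
Cln3: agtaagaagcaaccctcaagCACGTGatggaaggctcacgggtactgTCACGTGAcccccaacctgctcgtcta
Ctsd: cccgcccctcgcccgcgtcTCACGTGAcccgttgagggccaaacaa
Mcoln1: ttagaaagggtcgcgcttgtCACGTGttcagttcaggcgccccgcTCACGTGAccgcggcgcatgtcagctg
Gla: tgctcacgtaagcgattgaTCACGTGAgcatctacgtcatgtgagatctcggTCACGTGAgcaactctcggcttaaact
The next 4 lines give members with only the shorter motif whose levels differed between the sexes, Lamp1 on chr8:13159080-13159171 (plus), Glb1 on chr9:114401010-114401055 (plus), Arsa on chr15:89477415-89477460 (minus) and Sgsh on chr11:119355514-119355559 (minus).
Lamp1: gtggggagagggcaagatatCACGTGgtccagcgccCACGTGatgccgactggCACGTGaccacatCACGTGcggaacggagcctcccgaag
Glb1: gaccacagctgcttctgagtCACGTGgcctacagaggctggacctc
Arsa: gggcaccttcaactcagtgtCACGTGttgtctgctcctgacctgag
Sgsh: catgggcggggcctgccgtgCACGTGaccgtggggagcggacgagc
Lamp1 held 4 copies of CACGTG within 61 bases before its start, and Ctsa held a TCACGTGA on either side of its start. Naglu, Gaa and Ctsl also held a CACGTG. Gusb, Arsb, Fuca1, Neu1, Man2b1, Psap and Mitf, which are among the members with the clearest sex difference below, had an entry but neither motif within it.

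Levels were first compared between members per length, as CPM per kilobase of exon, and these and all later CPM use library totals adjusted by TMM. Psap, the precursor of the saposins that present sphingolipids to their hydrolases, was the most abundant at 634.8 CPM per kb, followed by Lamp1, the main glycoprotein of the lysosomal membrane, at 321.9. The proteases Ctsd, Ctsz and Ctsb followed at 147, 131 and 121 CPM per kb, and the sialidase Neu1 and the fucosidase Fuca1 at 116 and 101. The transcription factors were far lower, with Tfeb at 5.61, Mitf at 2.68 and Tfe3 at 2.62 CPM per kb. The sulfamidase Sgsh at 2.27 and the cholesterol exporter Npc1 at 1.30 CPM per kb were the lowest members by this measure. The length used joins all annotated exons of a gene, 11317 bases for Npc1, so the order depends on the annotation. Of the exon length of Ctsd 34.4% is shared with a protein-coding gene on the same strand. How reads from that stretch were counted is not known here. In CPM without division by length, Gla was the lowest at 7.59, and Npc1 had 14.7.

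**Figure D1:**
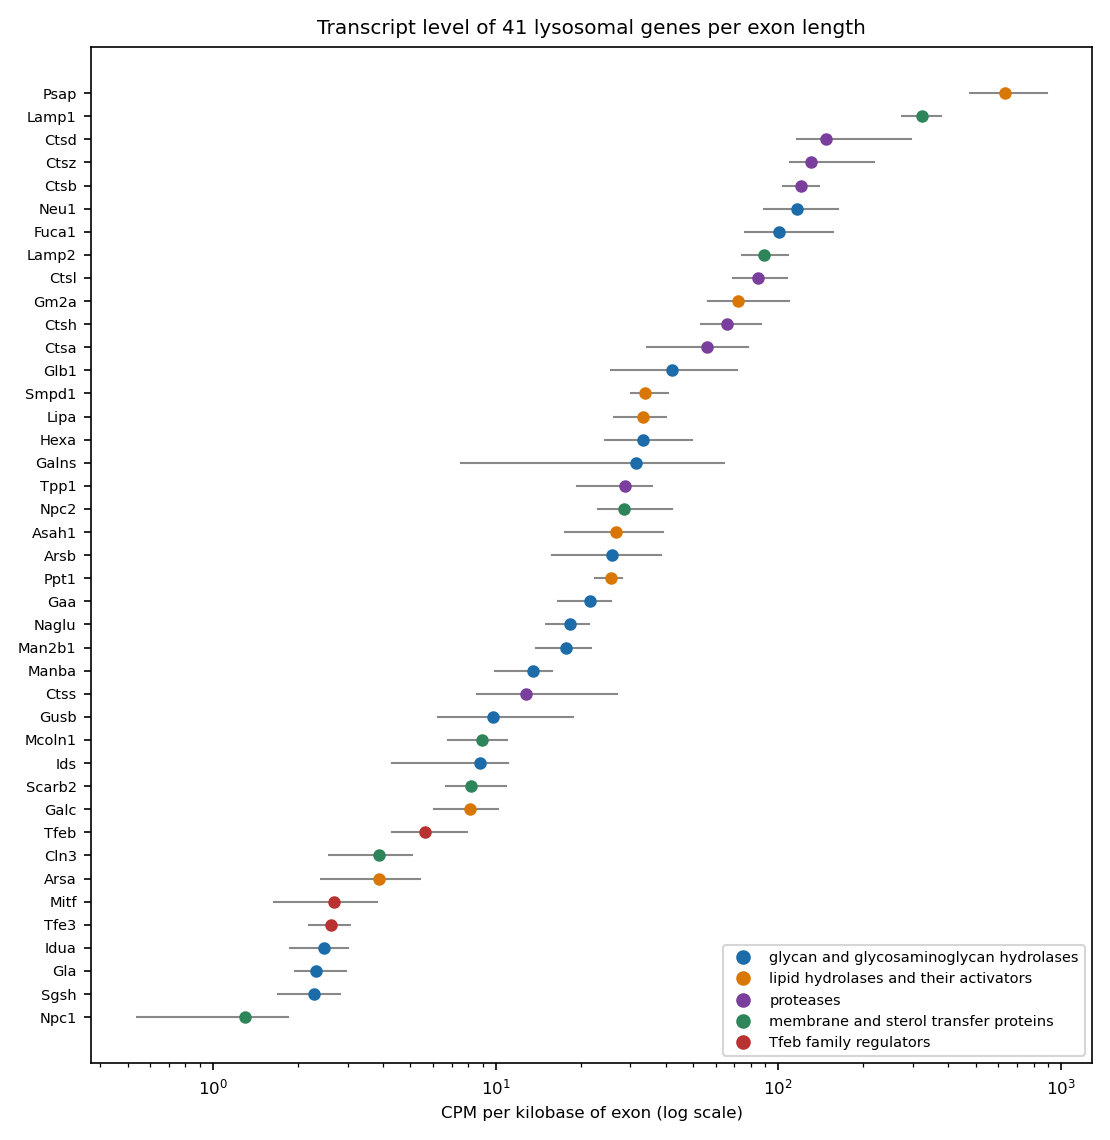
Transcript level of the 41 lysosomal genes in CPM per kilobase of exon, on a log scale, coloured by role. Points are means of the 6 group means, and lines run from the lowest to the highest of the 28 libraries. Psap and Lamp1 lead, and Galns, whose libraries run from 20.1 to 171 CPM before division by length, has the widest line.

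The spread between kidneys differed among members, and the ratios of Ppt1, Ctsb and Lamp1 were among the smallest. The highest library was 1.24 times the lowest for Ppt1, the thioesterase that removes palmitate from proteins, 1.33 times for Ctsb and 1.37 times for Lamp1. Many members had a wider spread, such as Tpp1 at 1.83 times and Ctsd at 2.53 times. The ratio was 8.51 for Galns, the sulfatase that removes sulfate from keratan sulfate and chondroitin sulfate, 3.42 for Npc1, 3.12 for Ctss, a cathepsin of antigen-presenting cells, and 3.02 for Gusb, the lysosomal β-glucuronidase. For Galns the spread followed the sexes. For Gusb it did so only in part, as the male libraries alone ran from 40.2 to 85.7 CPM. For Npc1 the low values were those of the 2 libraries with few mitochondrial counts, 6.09 CPM in male Q replicate 4 and 6.26 in female Q replicate 5. For Ctss the high value was that of the library labelled female WT replicate 2, at 36.5 CPM against 13.9 to 20.01 in the other female WT libraries. The summed level of 15 macrophage and leukocyte markers was also highest there, at 909 CPM against 351 to 734 in the other 27 libraries, and its part in the Ctss value was not tested.

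**Figure D2:**
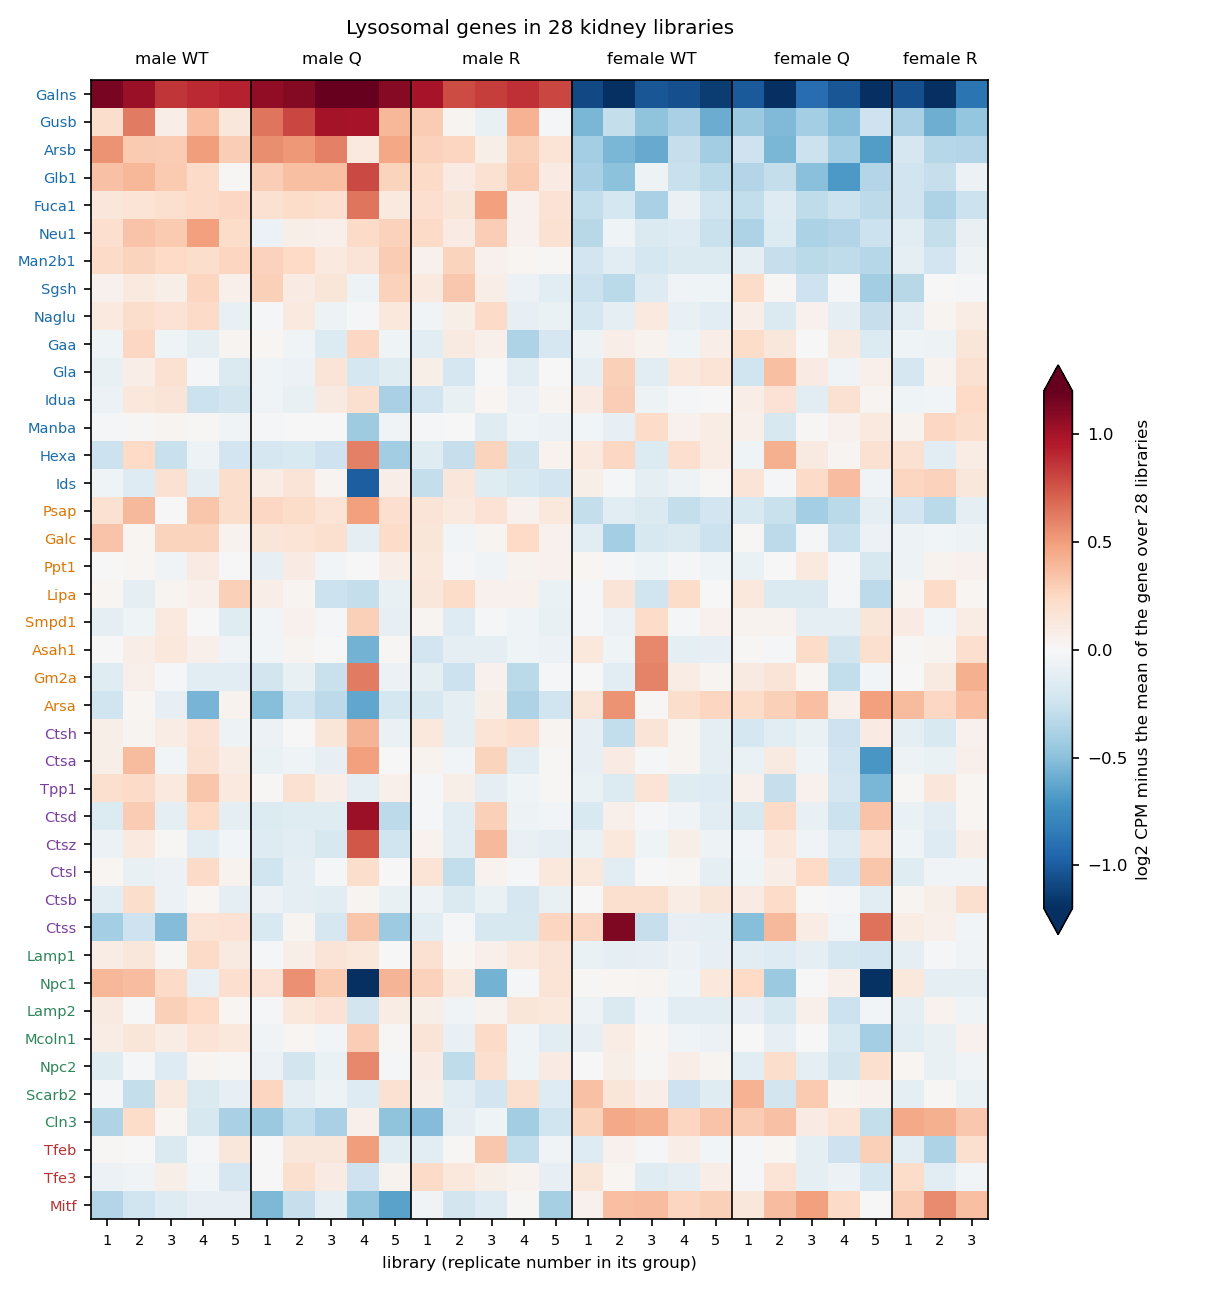
Log2 CPM of each member minus that gene's mean over the 28 libraries, in red where a library is above the mean and blue where it is below, with libraries grouped by sex and genotype and gene names coloured by role. Galns, Gusb, Arsb, Glb1 and Fuca1 are red in the male groups and blue in the female groups, and male Q replicate 4 departs from its group for several proteases and lipid genes.

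Male and female kidneys differed in several glycan and glycosaminoglycan hydrolases, and most of the differences were higher in males. Averaged over the 3 genotypes, 19 of the 41 members passed the test (edgeR's quasi-likelihood test with Benjamini-Hochberg adjusted p under 0.05 over all 17573 genes), 14 of them higher and 5 lower in males. Of all tested genes 40.2% passed the same test, 18.9% higher and 21.3% lower in males. The members' share of 46.3% was thus near the background in total. The median log2 fold change of the members was 0.03, against -0.04 for all tested genes. In WT alone 14 members passed (16.5% of all tested genes), 11 higher and 3 lower in males, beside 8.22% and 8.31% of all tested genes. In Q alone 13 passed (23.1% of all), 10 higher and 3 lower, beside 11.9% and 11.2%. In R alone 10 passed (14.1% of all), 7 higher and 3 lower, beside 7.07% and 7.01%. Gusb, Glb1, Neu1, Fuca1, Arsb, Galns and Psap were higher in males in each of the 3 genotypes, which holds for 5.23% of all tested genes. Gusb is counted here and above, though its male Q and R levels were known beforehand. Arsa, Cln3 and Mitf were lower in males in each of the 3, which holds for 4.04% of all tested genes (9.27% for either direction).

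Without male Q replicate 4 and female Q replicate 5, 23 members passed in the mean of genotypes, with Ids, Tpp1, Hexa, Gm2a and Npc1 added and Manba lost. Without the library labelled female WT replicate 2, 11 passed in WT, with Tpp1, Lamp1 and Arsa lost, and the same 19 in the mean of genotypes. The same members were lost in WT without male WT replicate 1 and without male WT replicate 4, so these calls did not hinge on that library alone. With no filter on low counts Sgsh, Ctsb, Ctsh, Lamp2, Mcoln1 and Manba no longer passed in the mean of genotypes. These 6 passed in no single genotype. With 1 library left out in turn, the edgeR adjusted p in that mean reached 0.0853 for Mcoln1, 0.0847 for Ctsh and 0.0607 for Ctsb. Without female R replicate 1 Psap, Glb1, Arsa and Neu1 no longer passed in R alone, where 6 members were left.

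Several cell type markers moved with sex, as did 40.2% of all tested genes in the mean of genotypes (18.9% higher and 21.3% lower in males). The summed level of 10 proximal tubule genes was 14590 to 17210 CPM in male and 9180 to 12980 in female libraries, with 5 genes higher and 4 lower in males. Of 8 markers of other kidney epithelia 7 were lower in males, with sums of 3658 to 5759 CPM in male and 5083 to 7306 in female libraries. Of 15 macrophage and leukocyte markers 4 were lower in males and none higher, and of 8 endothelial and stromal markers 4 were lower and none higher. No marker of these lists was at 0 throughout a group. Their part in the differences of the lysosomal genes was not tested, and in whole-kidney RNA a change in the number of cells of a type and a change in RNA per cell cannot be told apart.

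**Figure D3:**
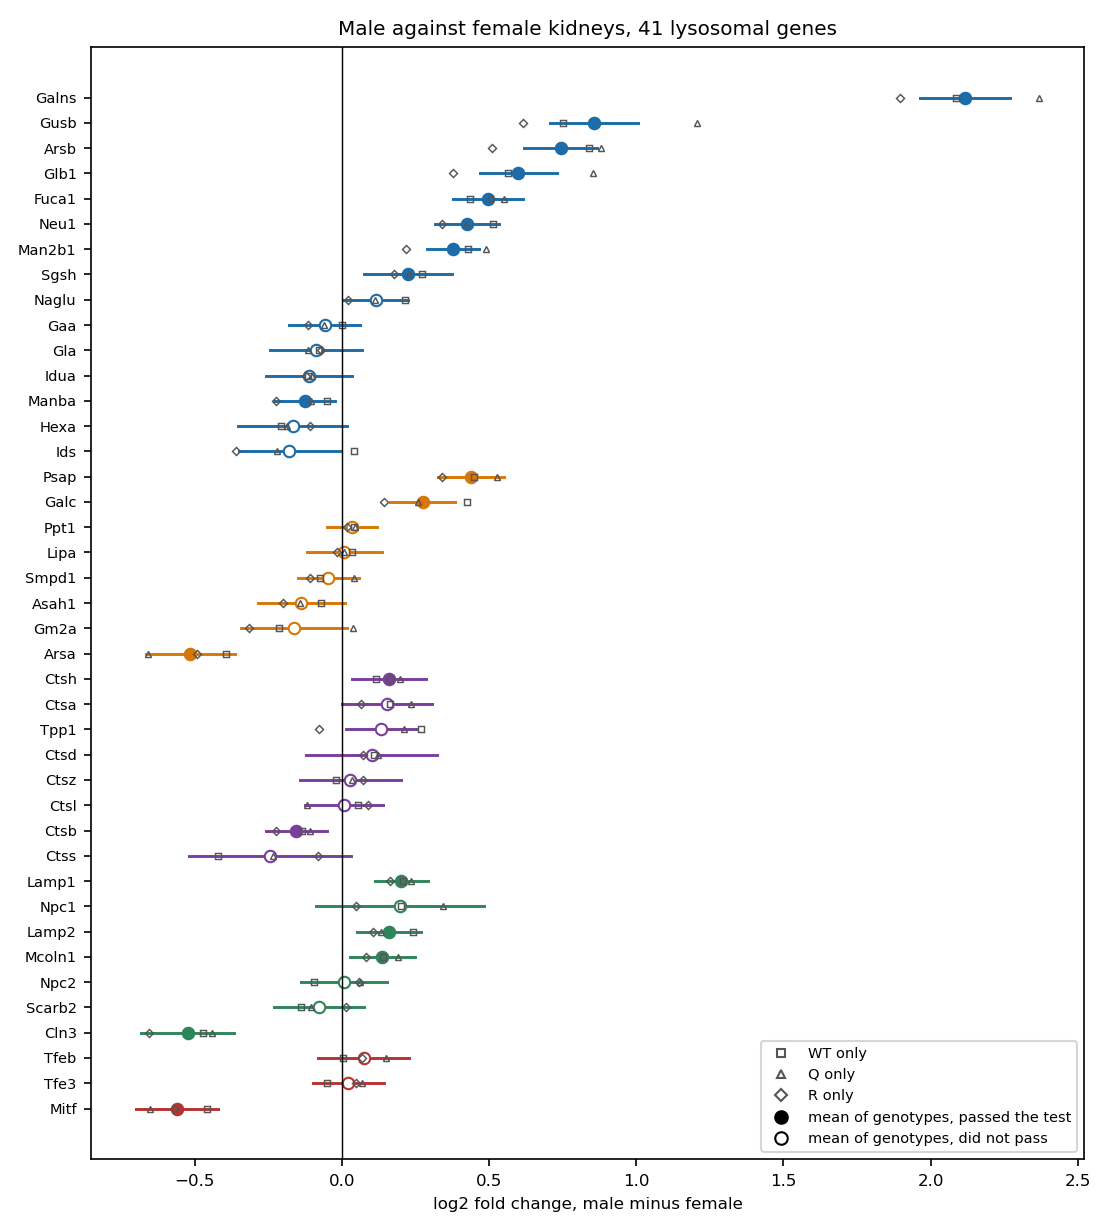
Log2 fold change of each member, male minus female. Circles are the mean of the 3 genotypes with a 95% interval (line), filled where the test passed and open where it did not, coloured by role; small squares, triangles and diamonds are the estimates in WT, Q and R alone. Galns stands apart at 2.12, and Cln3, Arsa and Mitf lie below -0.50.

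Among the 15 glycan and glycosaminoglycan hydrolases 8 were higher and 1 lower in males, beside 18.9% and 21.3% of all tested genes. Galns ran from 117 to 171 CPM over the 15 male libraries, with a median of 134, and from 20.1 to 36.9 over the 13 female libraries, with a median of 32.5. Every male library lay above every female library. The male level was 4.34 times the female level (log2 fold change 2.12, SE 0.07, adjusted p = 1.43e-20 in edgeR's test). In WT Galns was 133 ± 10.9 CPM in males and 31.3 ± 2.03 in females (SD, n = 5 each). In Q the levels were 151 ± 11.9 and 29.3 ± 6.98 CPM (n = 5 each). In R they were 123 ± 7.06 CPM in males (n = 5) and 32.9 ± 3.83 in females (n = 3). No annotated exon of another gene overlaps Galns.

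Arsb, the sulfatase that acts on dermatan sulfate, ran from 160 to 232 CPM in males (median 188) and from 95.7 to 133 in females (median 115). The sexes did not overlap, and the male level was 1.67 times the female level (log2 fold change 0.74, SE 0.06, adjusted p = 1.09e-11). Of the exon length of Arsb 39.9% is shared with 2 non-coding RNA genes on the opposite strand. The counting used no strand, and how reads from the shared stretch were counted is not known here.

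Gusb, which removes glucuronic acid from glycosaminoglycans, ran from 40.2 to 85.7 CPM in males (median 54.9) and from 28.4 to 36.1 in females (median 31.1). Again no male library reached down to the female range, and the male level was 1.81 times the female level (log2 fold change 0.86, SE 0.07). That mean includes the male Q and R libraries, whose Gusb levels were known beforehand, so its p-value is not given. In WT alone the log2 fold change was 0.75 (adjusted p = 1.83e-05 in edgeR's test). The female libraries lay close together, while the male libraries were widely spread.

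Glb1, the β-galactosidase of keratan sulfate and ganglioside breakdown, ran from 126 to 215 CPM in males (median 152) and from 77.1 to 120 in females (median 99.5), again without overlap (log2 fold change 0.60, SE 0.06, adjusted p = 4.10e-09). Its highest male value was that of male Q replicate 4, and the other 14 male libraries ended at 164 CPM. Fuca1, which removes fucose from glycoproteins, ran from 341 to 513 CPM in males (median 376) and from 250 to 310 in females (median 274), without overlap (log2 fold change 0.50, SE 0.06, adjusted p = 2.79e-08). Man2b1, the lysosomal α-mannosidase, ran from 143 to 175 CPM in males (median 166) and from 111 to 135 in females (median 122), without overlap (log2 fold change 0.38, SE 0.04, adjusted p = 1.69e-08). These enzymes all act on the sugar chains of glycoproteins or glycolipids.

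Neu1, which removes terminal sialic acid, ran from 410 to 608 CPM in males (median 503) and from 332 to 415 in females (median 361). Its lowest male library, male Q replicate 1 at 410 CPM, lay just below its highest female one, which was the library labelled female WT replicate 2 at 415 CPM. The male level was 1.34 times the female level (log2 fold change 0.42, SE 0.05, adjusted p = 9.40e-08). Sgsh, which acts on heparan sulfate, was higher in males by a log2 fold change of 0.23 (adjusted p = 0.0121), with 9.13 to 12.5 CPM in males and 7.49 to 11.7 in females, and 21.6% of its exon length overlaps Card14 on the opposite strand. Manba, the β-mannosidase that acts after Man2b1 in the breakdown of N-glycans, was the member of the group that was lower in males (log2 fold change -0.13, SE 0.05, adjusted p = 0.0444). With 1 library left out in turn the adjusted p of Manba ran from 0.0292 to 0.115.

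The other 6 of these hydrolases did not pass the test. The heparan and dermatan sulfate enzymes Ids and Idua had log2 fold changes of -0.18 and -0.11. The heparan sulfate enzyme Naglu had 0.12, and the β-hexosaminidase subunit Hexa had -0.17. The α-galactosidase Gla and the glycogen-degrading α-glucosidase Gaa had -0.09 and -0.06. The 95% intervals of Idua (-0.26 to 0.04) and Naglu (0.00 to 0.23) lay below those of Galns (1.97 to 2.27), Arsb (0.62 to 0.87) and Gusb (0.71 to 1.01), which act on the same class of substrates.

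**Figure D4:**
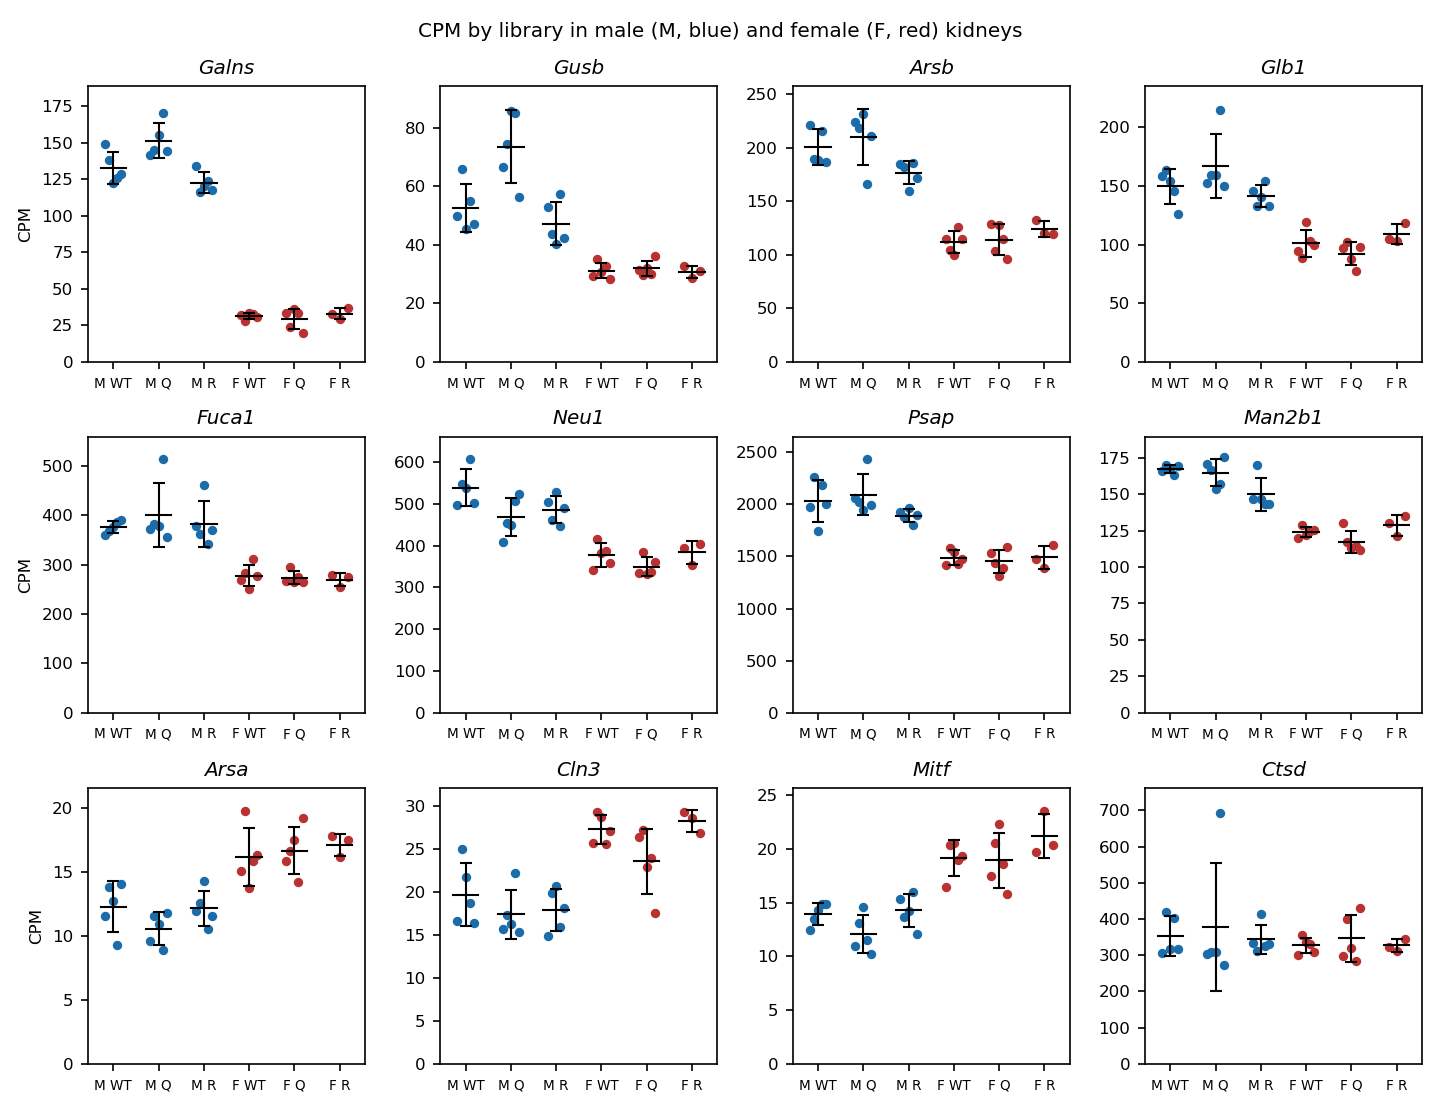
CPM of 12 members in each library, male groups in blue and female groups in red; horizontal bars are the group mean and error bars the SD (n = 5, and 3 in female R), with each axis starting at 0. Galns, Gusb, Arsb, Glb1, Fuca1, Psap and Man2b1 do not overlap between the sexes, Arsa, Cln3 and Mitf are lower in males, and the highest Ctsd point is male Q replicate 4 at 694 CPM.

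Among the 8 lipid genes Psap and Galc were higher and Arsa lower in males, beside 18.9% and 21.3% of all tested genes. Psap ran from 1741 to 2439 CPM in males (median 1973) and from 1310 to 1606 in females (median 1479), without overlap, and the male level was 1.36 times the female level (log2 fold change 0.44, SE 0.05, adjusted p = 8.47e-08). Galc, which splits galactosylceramide with the help of a saposin, ran from 111 to 152 CPM in males and from 90.2 to 121 in females (log2 fold change 0.28, SE 0.05, adjusted p = 0.000102). The ranges of Galc overlapped, with its lowest male value in male Q replicate 4.

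Arsa, the sulfatase of sulfatide, ran from 8.89 to 14.3 CPM in males (median 11.6) and from 13.8 to 19.8 in females (median 16.3). The female level was 1.43 times the male level (log2 fold change, male minus female, -0.51, SE 0.07, adjusted p = 9.97e-07). An antisense gene overlaps 18.8% of the exon length of Arsa, and how reads from that stretch were counted is likewise not known. Arsb and Arsa, both sulfatases, thus differed between the sexes in opposite directions. Asah1, Smpd1, Lipa, Gm2a and Ppt1 (acid ceramidase, acid sphingomyelinase, acid lipase, the activator of ganglioside breakdown and the thioesterase) did not pass the test, with log2 fold changes from -0.16 for Gm2a to 0.03 for Ppt1.

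Across the 14 members found higher in males, 4 reached a fold of 1.5 or more, and all 4 were glycan hydrolases (Galns, Gusb, Arsb and Glb1). The share of all tested genes at that fold was not counted, so nothing is read from this number. In all, 7 members had no overlap between the 15 male and 13 female libraries with males higher, which is 17.1% of the members against 3.2% of all tested genes. None did so with males lower (1.94% of all tested genes, and 5.14% for either direction). Gusb is among the 7, and its male Q and R levels were known beforehand.

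The proteases differed little between the sexes. Of 8, the aminopeptidase Ctsh was higher in males (log2 fold change 0.16, adjusted p = 0.0347) and the cysteine protease Ctsb lower (log2 fold change -0.15, adjusted p = 0.0141). Of all tested genes 18.9% were higher and 21.3% lower. Ctsb ran from 630 to 837 CPM in males and from 661 to 842 in females, so the ranges overlapped almost fully. Ctsa, the carboxypeptidase that holds Neu1 and Glb1 in a complex, had a log2 fold change of 0.16 (adjusted p = 0.0949). The tripeptidyl peptidase Tpp1 passed in WT only (log2 fold change 0.27, adjusted p = 0.0492), and its difference in sex effect between R and WT did not pass. With 1 WT library left out in turn, the adjusted p of Tpp1 in edgeR's test ran from 0.0147 to 0.129 (0.102 without the library labelled female WT replicate 2). Ctsd, Ctsz, Ctsl and Ctss had log2 fold changes of 0.10, 0.03, 0.01 and -0.24 and did not pass. Ctsd and Ctsz were highest in male Q replicate 4, at 694 and 314 CPM, against 274 to 431 and 159 to 245 CPM in the other 27 libraries.

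Of the 7 membrane and sterol transfer proteins Lamp1, Lamp2 and Mcoln1 were higher and Cln3 lower in males, beside 18.9% and 21.3% of all tested genes. Lamp1 ran from 851 to 1006 CPM in males (median 925) and from 735 to 852 in females (median 797), and only 1 male library, male Q replicate 1, lay below the highest female one (log2 fold change 0.20, SE 0.04, adjusted p = 0.000322). The X-linked Lamp2, its partner in the membrane, and the calcium channel Mcoln1 had log2 fold changes of 0.16 and 0.14 (adjusted p = 0.0152 and 0.0355). Cln3, a membrane protein mutated in juvenile neuronal ceroid lipofuscinosis, ran from 14.9 to 24.9 CPM in males (median 17.4) and from 17.6 to 29.3 in females (median 26.8). The female level of Cln3 was 1.44 times the male level (log2 fold change, male minus female, -0.52, SE 0.08, adjusted p = 1.74e-06), and its lowest female library was female Q replicate 5. The sterol transfer proteins Npc1 and Npc2 and the receptor Scarb2, which carries glucocerebrosidase to the lysosome, had log2 fold changes of 0.20, 0.01 and -0.08 and did not pass.

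Of the 3 regulators Mitf alone passed, where 40.2% of all tested genes did. Mitf ran from 10.2 to 16.02 CPM in males (median 13.7) and from 15.8 to 23.5 in females (median 19.7), so that only the lowest female library, female Q replicate 5 at 15.8 CPM, lay below the highest male one. The female level was 1.47 times the male level (log2 fold change, male minus female, -0.56, SE 0.07, adjusted p = 4.82e-08). Tfeb and Tfe3 had log2 fold changes of 0.07 (95% interval -0.08 to 0.23) and 0.02 (-0.10 to 0.15).

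Members with these motifs moved in both directions. Of the 5 members with TCACGTGA, Cln3 was lower and Mcoln1 higher in males, and Ctsa, Ctsd and Gla did not pass. Of the 7 with only CACGTG, Lamp1, Glb1 and Sgsh were higher, Arsa was lower, and Naglu, Gaa and Ctsl did not pass. Mcoln1 and Sgsh passed in the mean of genotypes but in no single genotype, and 40.2% of all tested genes passed in that mean.

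Further genes of the lysosome, from lists that do not overlap the 41, also moved in both directions. Their counts stand beside 18.9% of all tested genes higher and 21.3% lower in males (40.2% for either direction). Of 34 tested soluble enzymes outside the list 11 were higher and 16 lower in males, and the 4 with the smallest p were all higher, Ppt2, Fuca2, Cpq and Smpdl3a, with log2 fold changes of 1.24, 0.94, 0.64 and 0.66. Ppt2 is a thioesterase related to Ppt1, Fuca2 a fucosidase related to Fuca1, Cpq a carboxypeptidase and Smpdl3a a relative of acid sphingomyelinase. Among the 16 lower genes, Plbd1, Ggh and the cathepsins Ctsc and Ctsf, chosen after their values were seen, had log2 fold changes of -0.99, -0.58, -0.39 and -0.36. Of 30 tested membrane proteins 10 were higher and 9 lower, and the 4 with the smallest p were Mcoln2 (-1.93), a relative of Mcoln1, Laptm4b (-0.72), the amino acid transporter Slc36a1 (0.63) and Mfsd12 (-0.67), in log2 fold change, male minus female. Of 16 widely expressed subunits and accessory proteins of the proton pump that acidifies the lysosome, 7 were higher and 1 lower. The largest of the 4 with the smallest p was Atp6v0d1 at a log2 fold change of 0.31, with Atp6v0c at 0.19, Atp6v0a2 at 0.26, and Atp6ap2 at -0.28.

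Of 14 genes that tag and sort hydrolases by mannose 6-phosphate or the retromer, 5 were higher and 1 lower in males, among them the cation-dependent receptor M6pr (0.26), the retromer subunit Vps29 (0.25), the adaptor subunit Ap1s1 (0.28) and the sorting receptor Sort1 (-0.49). Of 17 genes of nutrient sensing on the lysosome 8 were higher and 3 lower, among them the kinase Mtor (0.73), its scaffold Lamtor1 (0.36) and the GTPases Rragb (-0.79) and Rragd (-0.27). All of these values are log2 fold changes, male minus female, in the mean of genotypes, where 18.9% of all tested genes were higher and 21.3% lower. The medians of the 5 lists were -0.10 for the soluble enzymes, 0.02 for the membrane proteins, 0.12 for the pump, 0.04 for sorting and 0.13 for nutrient sensing, beside -0.04 for all tested genes.

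The comparison of genotypes asks whether the state of the Aqp3 lysine changes the transcripts of the kidney. For the lysosomal genes no difference between genotypes passed edgeR's test. In each of Q against WT, R against WT and Q against R, in males, in females and in the mean of the sexes, 0 of the 41 members passed, where 0% of all 17573 genes did. At an unadjusted p under 0.05 the members numbered 2 in male Q against WT (beside 5.11% of all tested genes), 2 in male R against WT (2.13%) and 5 in male Q against R (4.1%). In females they numbered 0 in Q against WT (2.94%), 0 in R against WT (1.92%) and 1 in Q against R (3.03%). In the mean of the sexes they numbered 4 in Q against WT (4.72%), 0 in R against WT (1.34%) and 3 in Q against R (3.93%). The counts in Q against WT and Q against R, in males and in the mean of the sexes, include Gusb, and nothing is read from its place in them. With Gusb set aside, DESeq2's Wald test called no member in any genotype comparison. The comparisons with WT share the WT libraries, and those with Q or R share those libraries.

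Apart from Gusb and Galns in males, every estimated difference between genotypes within a sex lay between -0.26 and 0.25 on the log2 scale. The median over members was -0.01 in male Q against WT, -0.06 in male R against WT and 0.03 in male Q against R, and it was -0.04, 0.01 and -0.06 in females. For all tested genes these medians lay between 0.00 and 0.01 in size.

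**Figure D5:**
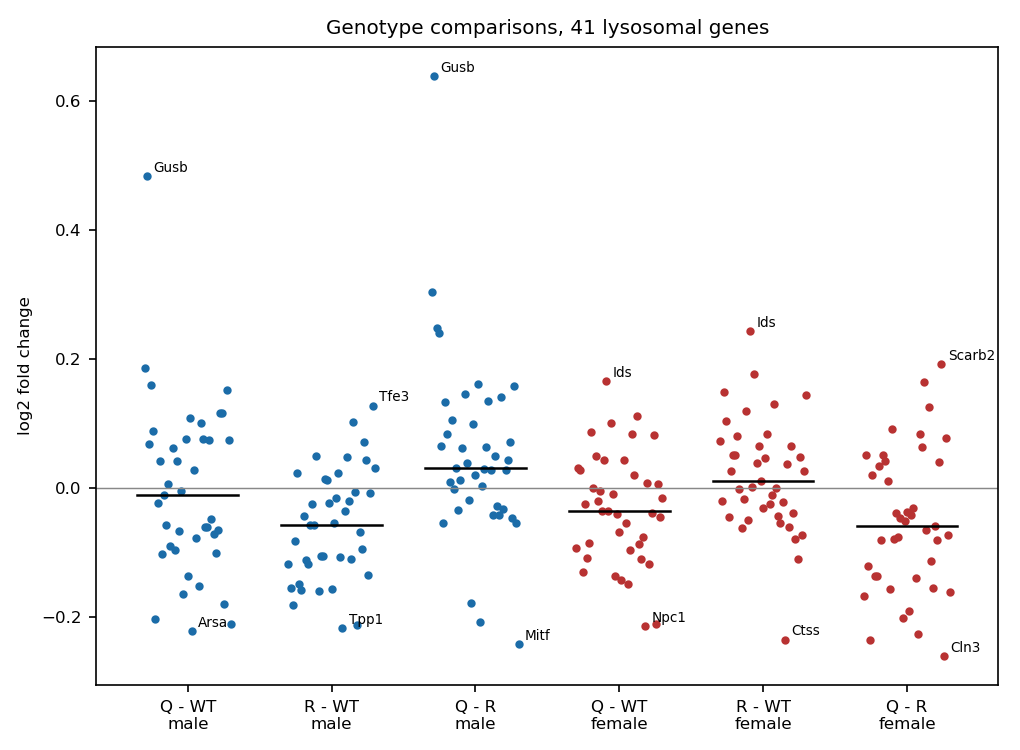
Log2 fold change of the 41 members in 6 genotype comparisons, males in blue and females in red; each point is a gene, black bars are medians, and the highest and lowest gene of each comparison are named. Gusb lies at 0.48 in male Q against WT and 0.64 in male Q against R, above all other points.

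Gusb is described first, as the member whose level was known beforehand. In males it was 66.7, 74.6, 85.7, 85.0 and 56.3 CPM in the 5 Q libraries. In the 5 WT libraries it was 49.7, 66.0, 45.4, 54.9 and 47.2 CPM, and in the 5 R libraries it was 53.0, 43.8, 40.2, 57.3 and 42.2 CPM. The lowest Q library lay inside the WT range and just below the highest R library, and the other 4 Q libraries lay above every WT and R library. In females the 3 genotypes overlapped, with a mean of 31.3 ± 2.70 CPM in WT (SD, n = 5). Female Q had a mean of 32.0 ± 2.55 (n = 5), and female R had 30.8 ± 2.13 (n = 3). As a description with no test, male Q was 1.56 times male R and 1.399 times male WT.

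Leaving Gusb aside, Galns had the smallest p in male Q against R, with 142, 145, 155, 171 and 145 CPM in Q and 134, 117, 121, 124 and 118 CPM in R. The groups did not overlap, which was so with Q higher for 1 of the 41 members and 0.273% of all tested genes, and the log2 fold change of 0.30 (SE 0.11) did not pass (adjusted p = 1 in edgeR's test). In male Q against WT it was Neu1, at a log2 fold change of -0.20 (SE 0.09, adjusted p = 0.917).

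In male R against WT, Tpp1 (log2 fold change -0.22, SE 0.09) and Man2b1 (-0.16, SE 0.07) had the smallest p, and neither passed (edgeR adjusted p = 1). Tpp1 was 168, 172, 159, 184 and 160 CPM in male WT and 146, 154, 136, 142 and 148 CPM in male R. Tpp1, Arsb and Asah1 did not overlap between these groups, with R lower, which was so for 0.302% of all tested genes. The opposite sign of Tpp1 in females (149 to 161 CPM in R, 131 to 164 in WT) was tested as an interaction below.

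In females the smallest p values belonged to Cln3 and Mcoln1 in Q against WT (log2 fold changes -0.21 and -0.12), to Galc and Ids in R against WT (0.18 and 0.24), and to Tpp1 and Glb1 in Q against R (-0.23 and -0.24). None passed (edgeR adjusted p from 0.998 to 1). Galc was 115, 117 and 115 CPM in the 3 R libraries and 109, 90.2, 105, 106 and 99.9 CPM in WT. Ids, the X-linked sulfatase of iduronic acid, was 52.5, 53.0 and 48.3 CPM in R and 40.6 to 46.0 in WT. Both did not overlap, with R higher, beside 1.89% of all tested genes, a larger share than in males because female R has 3 libraries. Glb1 did not overlap between female Q and R, with Q lower, beside 1.42% of all tested genes.

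In the mean of the sexes the estimates of Gusb were 0.26 in Q against WT and 0.35 in Q against R, given without a test. Leaving Gusb aside, the smallest p belonged to Neu1 in Q against WT (log2 fold change -0.16, SE 0.06, edgeR adjusted p = 0.920) and to the acid lipase Lipa in Q against R (-0.19, SE 0.08, adjusted p = 0.985). In R against WT the estimates nearest to the threshold were those of Tfe3 (0.08) and Mitf (0.09), with adjusted p of 1. The mean of the sexes averages a male and a female value of Gusb that differed in size, 0.48 and 0.03 against WT.

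The difference between the sexes in the effect of each genotype was tested directly. No member passed edgeR's or DESeq2's test for Q or for R (0 of 41, and 0% of all tested genes by edgeR). At an unadjusted p under 0.05 there were 1 for Q (beside 3.11% of all tested genes) and 3 for R (2.82%). The member counted for Q was Gusb, whose level in male Q was known beforehand, and nothing is read from its place there. For Q against WT the interaction of Glb1 was 0.29 on the log2 scale (SE 0.15, 95% interval -0.01 to 0.59, edgeR adjusted p = 0.999), and that of Gusb was 0.45, given without a test. For R against WT Tpp1 had -0.35 (SE 0.14) and Arsb -0.33 (SE 0.15), both with an adjusted p of 0.992. The sex differences of Galns, at log2 fold changes of 2.09 in WT, 2.37 in Q and 1.90 in R, are not shown to differ between Q or R and WT. Those of Gusb were 0.75, 1.205 and 0.62.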

How the data were processed

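The authors deposited raw counts of fragments per gene for 28 libraries. Per the file headers they were made with featureCounts (Subread 2.0.1) over exons of Ensembl release 107 (GRCm39), with no strand option. Per the submitters' processing notes Trim Galore 0.6.7, SAMtools 1.6 and DESeq2 1.38.3 were used, and the aligner is not given in the sources used here. Genes without a symbol held 0.669% of counts.

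In R 4.3.3 with edgeR 4.0.16, filterByExpr kept 17573 genes with 99.91% of counts, libraries were scaled by TMM, and 1 model with 6 group means was fitted to all 28 libraries (22 residual degrees of freedom). Contrasts used the robust quasi-likelihood test with Benjamini-Hochberg adjustment over all tested genes at 0.05. Standard errors (SE) came from the F statistic of each test, as the size of the change over the root of F. The scripts were tested on simulated data. Alternatives were DESeq2 size factors, DESeq2 1.42.0, no filter, a replicate block, and libraries left out. Exon lengths and overlaps came from GENCODE release 21 (GRCm38) by gene identifier.

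Named were members called in a contrast, the 2 members with the smallest p in each genotype contrast, and up to 4 called genes of each further list (smallest p). Beyond this rule, Plbd1, Ggh, Ctsc and Ctsf were named after their values were seen. Gusb is given without a test in genotype contrasts with male Q or R, and without a p-value in the mean sex contrast. Members and lists were chosen with earlier results of these data known.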

Additional observations from a re-analysis of the deposited data

Results flagged for a closer look

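In 205 sets of 5 values, each a member in a group, 21 held a library far from the others of its group, where chance flags about 1 in 20. Of these, 14 were in male Q replicate 4, the library with 7.74% mitochondrial counts. Its values in CPM, with the range of the other 4 male Q libraries, were high for the proteases Ctsd (694, others 274 to 309), Ctsz (314, others 159 to 172) and Ctsa (367, others 244 to 261). They were also high for Hexa (99.1, others 48.8 to 57.5), its activator Gm2a (449.6, others 242 to 277), Glb1 (215, others 150 to 160), Fuca1 (513, others 355 to 382), Psap (2439, others 1948 to 2059), Npc2 (229, others 132 to 151) and Mcoln1 (83.0, others 66.0 to 69.0). They were low for Ids (22, others 44.8 to 48.8), Asah1 (59.9, others 87.1 to 91.0), Manba (69.5, others 90.6 to 93.6) and Galc (111, others 132 to 140).

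In male R replicate 2, Man2b1 (170.0 CPM, others 143 to 147) and Ids (48.0, others 36.0 to 39.5) lay above the other libraries. In male R replicate 3 the proteases Ctsd (415, others 312 to 335) and Ctsz (245, others 172 to 192) did so. In female WT replicate 3, Gm2a (439, others 266 to 310) and Tpp1 (164, others 131 to 139) were high, and in the library labelled female WT replicate 2, Ctss (36.5, others 13.9 to 20.01).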

How the results depend on the processing

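The number of members that passed in the mean sex contrast was 19, and it was 20 with DESeq2 size factors or DESeq2's test, 13 with no filter, 19 with the replicate block, 23 without the 2 libraries that stood apart and 16 to 23 with 1 library left out. In R alone it fell from 10 to 6 with no filter, and ran from 6 to 10 with 1 of its own libraries left out (6 without female R replicate 1). In male Q against R it went from 0 to 1 with DESeq2 and with no filter, and ran from 0 to 1 with 1 library left out (1 without male Q replicate 5 or without male R replicate 4). The gene counted there is Gusb, whose values were known when the list was made, so these counts support nothing about it. Manba reversed its small difference between the sexes, from -0.05 to 0.0042 in WT without female WT replicate 3 (range with 1 library left out -0.0748 to 0.0042), and to 9e-04 in Q without the 2 libraries that stood apart. Of the other values for single members 1814 kept direction and side of the threshold, 84 lost a call and 30 gained one. Same-numbered libraries did not deviate together (median correlation 0.006 over 65 pairs), and the replicate block gave 12, 13 and 9 members in WT, Q and R. Over all tested genes the calls in R went from 2474 to 4170 without the 2 libraries that stood apart, and to 1608 without female R replicate 1, the lowest with 1 library left out. Calls over all genes went from 0 to 3 with DESeq2, 1 with the block and up to 2 with 1 library left out in male Q against WT, and to 1 with DESeq2 in female Q against WT and in Q against WT over both sexes. In male Q against R they went from 0 to 1 with DESeq2 or no filter and up to 2 with 1 library left out. The causes were not tested. Npc1, Gla, Idua, Sgsh and Arsa, with lowest counts of 98 to 142 in a library, are the members that depth limits most.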
